A study of Mus musculus with 14 samples.

Results

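Collagen genes were followed in 2 sets of bulk liver libraries and in liver nuclei of mice. They were taken as every gene symbol made of Col, a type number, the letter a and a chain number. That rule found 42 genes of 26 collagen types among 29739 distinct symbols, of which 36 of 23404 genes stood in the bulk table labelled KO and wild type, 37 of 20337 in the bulk table labelled LD and PBS, and 41 of 21915 in the table of nuclei. In all 3 tables there were 35 of them, and 4 stood in the nuclei alone. Bulk RNA came from 12 libraries in 4 groups of 3. The first pair is Ms4a7 KO mice and wild type mice, both kept 22 weeks on a NASH diet, a diet given to bring on nonalcoholic steatohepatitis. The second pair is wild type mice on chow that received LD, the lipid droplets of the series title, or phosphate-buffered saline (PBS) by tail vein on 6 days in a row. Nuclei came from 1 library of Ms4a7 KO livers and 1 of wild type livers, both on the NASH diet for 22 weeks, and each library pooled 3 livers. Strain, sex, age and how the Ms4a7 allele was made are not given in the sources used here, and neither is whether a replicate is 1 animal, so that p-values measure the spread between these samples, which may be technical.

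Collagens are triple-helical proteins of the extracellular matrix. Types I, III and V build the fibrils that accumulate as scar in a fibrotic liver, type VI forms beaded filaments around cells, and type IV forms the network of basement membranes. Their chains are made in the endoplasmic reticulum, where prolyl and lysyl hydroxylases modify them and the chaperone Serpinh1 (HSP47) helps them fold. In liver, stellate cells are the main source of fibrillar collagen, and they make more of it when they turn into myofibroblasts. Type XVIII, whose end fragment is endostatin, is in contrast made by hepatocytes.

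The bulk labels need a caution before any result. Ms4a7, the gene named as deleted, had 102, 117 and 136 normalized counts in livers labelled KO, against 9.70, 25.8 and 23.3 in those labelled wild type, a log2 fold change of 2.63 ± 0.37 (adjusted p = 0.0149). Every library labelled KO held more Ms4a7 than every library labelled wild type, which goes against the genotype labels. In the other table Ms4a7 had 10.5, 7.60 and 9.32 normalized counts in livers labelled LD, against 62.2, 84.7 and 163 in those labelled PBS, a log2 fold change of -3.26 ± 0.39 (adjusted p = 0.00428), and every LD value was lower than every PBS value. The header of the table labelled KO and wild type calls the 3 libraries labelled KO treated and the 3 labelled wild type untreated. The submitters' names for the tables also cross the labels, since lipid droplets are in the name of the table labelled KO and wild type and Ms4a7 in that of the table labelled LD and PBS. Collagen levels also lay far apart between the tables. Scaled to a common total of 1000000 normalized counts in each library, Col1a1 stood at 5.28, 4.70 and 9.53 in livers labelled KO and at 6.18, 4.15 and 5.26 in livers labelled wild type, all on the NASH diet by label. It stood at 113, 100.2 and 97.5 in livers labelled LD and at 209, 188 and 243 in livers labelled PBS, all on chow by label. The 2 tables were scaled separately and differ in depth, with 21945394 to 23126164 reads per library in the table labelled KO and wild type and 39318264 to 41346464 in the other. All groups below are named as labelled, and each direction belongs to the libraries that carry the label. Whether labels or tables were exchanged cannot be told apart here. Liver markers were abundant throughout, and 6 pericentral hepatocyte markers summed to between 219883 and 277374 normalized counts in each library of the table labelled KO and wild type, and to between 259468 and 449898 in the other.

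**Figure D1:**
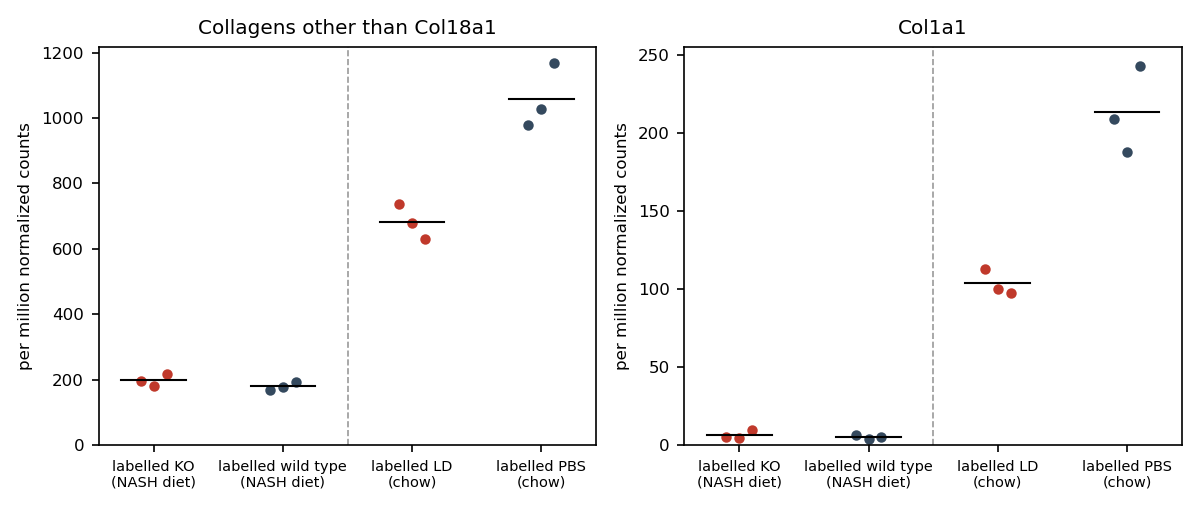
Collagen levels in the 12 bulk libraries, per 1000000 normalized counts of the library (vertical axis), by labelled group (horizontal axis); points are libraries, horizontal lines are means of 3, and the dashed line separates tables that were scaled separately. Collagens other than Col18a1 summed to 630.4 to 738 on this scale in livers labelled LD and 979.6 to 1167 in livers labelled PBS, against 181 to 218 in livers labelled KO and 169 to 193 in livers labelled wild type.

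The question put by the labels of the LD table is what lipid droplets in the blood do to liver transcripts on chow. Livers labelled LD held less of the transcripts for types I and III, for the 3 main chains of type VI, and for Col5a2, Col4a1, Col8a1 and Col15a1, and more Col27a1, than livers labelled PBS. Of 37 collagen genes in this table, 30 were tested, and 10 were lower and 1 was higher at an adjusted p under 0.05 (limma on log2 of the value plus 1, Benjamini-Hochberg over 14900 genes). Among all genes tested, 2.21% were lower and 1.95% higher, 4.16% in all, and at an unadjusted p under 0.05 there were 21 members and 19.7% of all genes tested. The 3 LD values lay below the 3 PBS values for 17 members and above them for 4, against 12.8% and 12.6% of all genes tested, and the groups overlapped for 9. The median log2 fold change was -0.50 over the 30 members and 0.00 over all genes tested. In bulk liver, fewer cells of a type and less RNA per cell cannot be told apart. In the authors' deposited table, 12 of the 31 collagens with an adjusted p were lower and 2 were higher in livers labelled LD. The authors' share over all genes is not given here. The limma percentages above are not a base for these 2 counts.

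The fibrillar chains summed to 15907 to 19226 normalized counts per library labelled LD and 23338 to 27345 per library labelled PBS, and 4 of 9 tested fibrillar members were lower. Col1a1 (chromosome 11, 94936224 to 94953042, plus strand) on GRCm38, as for all positions below, the major chain of type I collagen, had 4686, 4276 and 4044 normalized counts in livers labelled LD, against 8566, 6996 and 9127 in those labelled PBS. The LD libraries all lay lower, and the log2 fold change was -0.92 ± 0.11 (adjusted p = 0.00428). Its partner chain Col1a2 (chromosome 6, 4504814 to 4541544, plus strand) had 2507, 2306 and 2145 normalized counts in livers labelled LD, against 4012, 3534 and 4509 in those labelled PBS, again with no overlap, a log2 fold change of -0.79 ± 0.11 (adjusted p = 0.00587). Col3a1 (chromosome 1, 45311538 to 45349706, plus strand), the only chain of type III collagen, which is laid down early in a scar, had 4472, 4368 and 3879 normalized counts in livers labelled LD, against 7991, 7269 and 8717 in those labelled PBS. Its groups did not overlap either, and it differed by -0.91 ± 0.10 (adjusted p = 0.00293). Col5a2 (chromosome 1, 45374321 to 45503282, minus strand), a chain of the type V collagen that starts fibril assembly, had 311, 277 and 282 normalized counts in livers labelled LD, against 417, 464 and 541 in those labelled PBS, all lower under LD, with a log2 fold change of -0.70 ± 0.13 (adjusted p = 0.0226). Col3a1 and Col5a2 are neighbours, 24614 bases apart on chromosome 1 and on opposite strands.

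The other chains of type V did not pass. Col5a1 (chromosome 2, 27886425 to 28039514, plus strand) had 925, 935 and 962 normalized counts in livers labelled LD, against 1093, 1233 and 1181 in those labelled PBS. These groups did not overlap, but the log2 fold change of -0.31 ± 0.09 (adjusted p = 0.0876) did not pass. Col5a3 (chromosome 9, 20770050 to 20815067, minus strand) had 3920.2, 2728 and 2744 normalized counts in livers labelled LD, against 2475, 2531 and 2161 in those labelled PBS, with LD values above PBS values and a log2 fold change of 0.37 ± 0.14 (adjusted p = 0.19) that did not pass. Col27a1 (chromosome 4, 63214004 to 63334991, plus strand), a fibrillar collagen known from cartilage, was the 1 member that rose, with 2379, 2332 and 1799 normalized counts in livers labelled LD, against 987, 1267 and 1096 in those labelled PBS. Its lowest LD value stood above its highest PBS value, and the log2 fold change was 0.95 ± 0.13 (adjusted p = 0.00709). The ratio of Col1a1 to Col1a2 counts, which a shared change in both chains leaves as it is, was 1.85 to 1.89 in livers labelled LD and 1.98 to 2.14 in livers labelled PBS. The 2 ranges did not overlap, and this ratio was not tested.

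**Figure D2:**
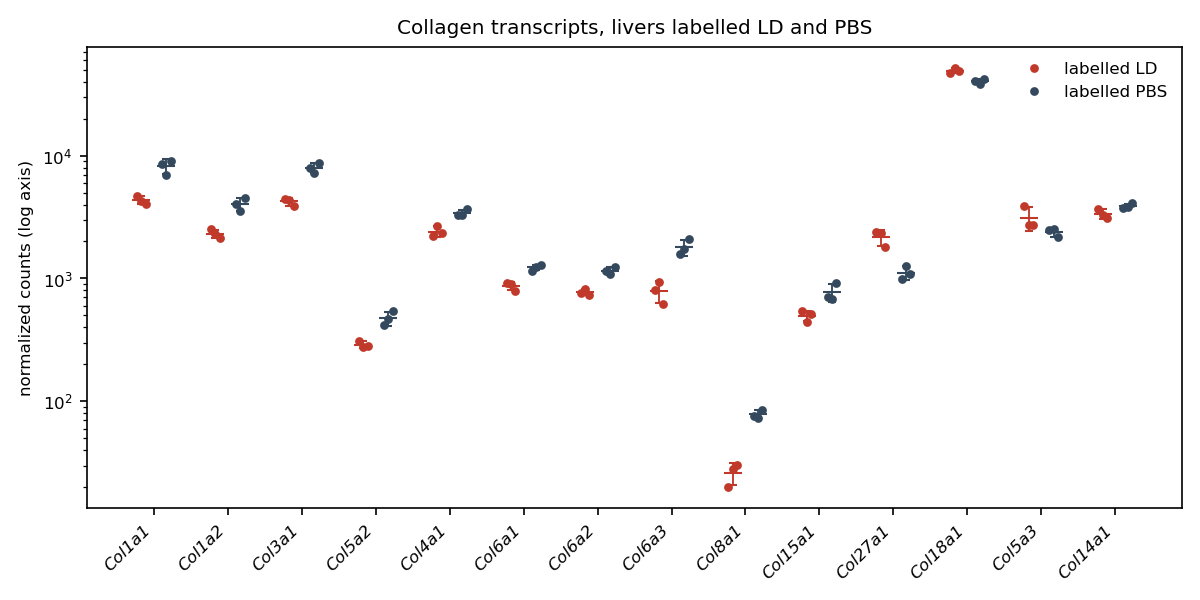
Normalized counts (log axis) of 14 collagen genes in 3 livers labelled LD (red, left of each pair) and 3 labelled PBS (dark, right); points are libraries, and bars give mean ± SD. Col1a1, Col1a2, Col3a1, Col5a2, Col4a1, Col6a1, Col6a2, Col6a3, Col8a1 and Col15a1 were lower in livers labelled LD and Col27a1 higher, while Col18a1, Col5a3 and Col14a1 did not pass the test.

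Promoters are shown for members on either side of this result, taken from RefSeq on build GRCm38.p6 as 250 bases before to 50 after the start that RefSeq gives for each gene and written 5′ to 3′ on the strand of the gene. Col1a2, Col3a1, Col6a3 and Col8a1 are among the lower members, Col27a1 is the higher one, and Col4a1 and Col4a2 share 1 bidirectional start region. Capitals mark a match on either strand. The motifs searched were CCAAT, then the core of an Sp1 site written as GGGCGG, and finally the box TATAAA. A match on the other strand reads as the reverse complement, and matches may adjoin or overlap.
Col1a2, chr6:4505368-4505667, plus strand: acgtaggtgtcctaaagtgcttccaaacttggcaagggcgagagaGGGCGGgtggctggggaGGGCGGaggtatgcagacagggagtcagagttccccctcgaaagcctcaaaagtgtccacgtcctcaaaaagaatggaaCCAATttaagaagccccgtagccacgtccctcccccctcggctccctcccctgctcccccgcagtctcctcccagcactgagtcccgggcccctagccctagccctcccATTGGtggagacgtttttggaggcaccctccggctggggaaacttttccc
Col3a1, chr1:45311288-45311587, plus strand: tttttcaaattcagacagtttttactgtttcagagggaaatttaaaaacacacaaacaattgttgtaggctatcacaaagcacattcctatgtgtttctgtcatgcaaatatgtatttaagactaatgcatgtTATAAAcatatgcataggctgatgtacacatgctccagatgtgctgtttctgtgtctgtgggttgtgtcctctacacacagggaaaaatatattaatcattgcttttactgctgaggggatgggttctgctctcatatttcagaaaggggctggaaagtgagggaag
Col6a3, chr1:90843922-90844221, minus strand: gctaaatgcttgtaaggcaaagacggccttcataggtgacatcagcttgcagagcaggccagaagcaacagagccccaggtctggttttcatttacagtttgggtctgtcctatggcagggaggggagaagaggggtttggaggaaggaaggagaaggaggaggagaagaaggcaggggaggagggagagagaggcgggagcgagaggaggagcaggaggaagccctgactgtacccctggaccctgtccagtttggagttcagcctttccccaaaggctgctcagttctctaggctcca
Col8a1, chr16:57754688-57754987, minus strand: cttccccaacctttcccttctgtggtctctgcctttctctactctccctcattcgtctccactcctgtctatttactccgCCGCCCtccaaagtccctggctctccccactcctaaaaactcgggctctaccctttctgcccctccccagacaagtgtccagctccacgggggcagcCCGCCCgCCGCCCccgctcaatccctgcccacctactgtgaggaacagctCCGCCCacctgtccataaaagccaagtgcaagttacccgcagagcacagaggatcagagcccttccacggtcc
Col4a1, chr8:11312777-11313076, minus strand: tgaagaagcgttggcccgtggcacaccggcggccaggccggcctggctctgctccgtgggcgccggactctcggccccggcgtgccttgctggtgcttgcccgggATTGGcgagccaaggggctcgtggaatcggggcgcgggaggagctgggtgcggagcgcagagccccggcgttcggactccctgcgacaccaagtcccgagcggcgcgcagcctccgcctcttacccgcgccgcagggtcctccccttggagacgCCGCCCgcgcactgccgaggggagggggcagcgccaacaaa
Col4a2, chr8:11312555-11312854, plus strand: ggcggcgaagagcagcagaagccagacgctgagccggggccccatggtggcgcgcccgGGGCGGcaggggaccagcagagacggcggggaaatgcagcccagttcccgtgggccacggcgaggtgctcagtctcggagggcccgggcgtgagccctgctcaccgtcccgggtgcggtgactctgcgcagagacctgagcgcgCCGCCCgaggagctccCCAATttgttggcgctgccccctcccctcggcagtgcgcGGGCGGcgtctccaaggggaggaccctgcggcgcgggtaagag
Col27a1, chr4:63215162-63215461, plus strand: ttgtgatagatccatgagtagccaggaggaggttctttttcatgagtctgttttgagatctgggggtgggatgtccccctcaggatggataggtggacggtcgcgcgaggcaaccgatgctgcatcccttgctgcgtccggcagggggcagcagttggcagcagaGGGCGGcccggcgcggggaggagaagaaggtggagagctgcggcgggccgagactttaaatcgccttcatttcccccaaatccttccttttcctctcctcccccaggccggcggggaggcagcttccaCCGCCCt
The RefSeq start equals the GENCODE start given with the positions for 5 of these genes, and lies 804 bases inside the GENCODE gene for Col1a2 and 1408 bases inside it for Col27a1. The Col1a2 window held CCAAT 2 times and GGGCGG 2 times. Col8a1 held GGGCGG 4 times and Col27a1 held it 2 times, Col3a1 held TATAAA 1 time, and no match to any of these motifs stood in the Col6a3 window. The starts of Col4a1 and Col4a2 lie 21 bases apart on opposite strands of chromosome 8, so that their windows share 78 bases and with them some matches. A window was present for 34 of the 42 collagen genes, 37 windows in all, and none for Col1a1 or Col5a2. GGGCGG stood in 59.5% of collagen windows and in 35.7% of all 32851 windows, CCAAT in 32.4% and 37.4%, and TATAAA in 13.5% and 13.6%. Of 9 windows of the lower members, 5 held GGGCGG, 2 held CCAAT and 1 held TATAAA. A match is a description of the letters in the window, and its use was not measured.

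Type VI collagen, the filament between cells and fibrils, fell in all 3 of its main chains in livers labelled LD, and 3 of 5 tested beaded filament members passed. Col6a3 (chromosome 1, 90765923 to 90843971, minus strand) had 799, 939.6 and 623 normalized counts in livers labelled LD, against 1568, 1722 and 2099 in those labelled PBS. Every LD value was under the lowest PBS value, with a log2 fold change of -1.20 ± 0.16 (adjusted p = 0.00587). Col6a1 (chromosome 10, 76708792 to 76726168, minus strand) had 910.0, 904 and 796 normalized counts in livers labelled LD, against 1160.4, 1245 and 1283 in those labelled PBS, a log2 fold change of -0.50 ± 0.10 (adjusted p = 0.0235). Col6a2 (chromosome 10, 76595762 to 76623630, minus strand) had 763, 825 and 738 normalized counts in livers labelled LD, against 1140.3, 1082 and 1247 in those labelled PBS, a log2 fold change of -0.58 ± 0.10 (adjusted p = 0.0147). Neither of these pairs of groups overlapped. Col6a5 and Col6a6 had 7.25 to 43.4 normalized counts in livers labelled LD and 12.03 to 28.2 in livers labelled PBS, with overlap in both.

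Among basement membrane chains, all 6 type IV chains had a log2 fold change under 0, from -1.37 for Col4a5 to -0.24 for Col4a4, and 1 of them passed in limma, while DESeq2 on recovered reads also called Col4a2 and Col4a5 lower. Col4a1 (chromosome 8, 11198423 to 11312826, minus strand), a chain of nearly all basement membranes, had 2205, 2682 and 2345 normalized counts in livers labelled LD, against 3299.5, 3306 and 3644 in those labelled PBS, with no overlap and a log2 fold change of -0.51 ± 0.10 (adjusted p = 0.0228). Its partner Col4a2 (chromosome 8, 11312805 to 11449287, plus strand) had 1667, 1744 and 1403 normalized counts in livers labelled LD, against 2016, 2035 and 2114 in those labelled PBS. These groups lay apart too, but -0.36 ± 0.10 (adjusted p = 0.079) did not pass. Col4a5, a chain also found in the filter of the kidney, had 49.3, 35.8 and 17.6 normalized counts in livers labelled LD, against 69.2, 73.9 and 112 in those labelled PBS. LD values lay under PBS values but varied widely, and -1.37 ± 0.38 (adjusted p = 0.086) did not pass.

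Network, multiplexin and fibril-associated collagens differed among themselves. Col8a1 (chromosome 16, 57624258 to 57754737, minus strand), a short chain that forms hexagonal networks, showed the largest fold change among the members that passed. It had 19.9, 28.2 and 30.0 normalized counts in livers labelled LD, against 76.2, 73.0 and 85.6 in those labelled PBS, and its groups were far apart, with a log2 fold change of -1.57 ± 0.26 (adjusted p = 0.0147). Col15a1 (chromosome 4, 47208161 to 47313167, plus strand), a basement membrane collagen related to type XVIII, had 538, 446 and 512 normalized counts in livers labelled LD, against 713, 685 and 916 in those labelled PBS, lower in each LD library, with a log2 fold change of -0.62 ± 0.14 (adjusted p = 0.0391).

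Col18a1 (chromosome 10, 77052178 to 77166548, minus strand) was the most abundant collagen transcript, also per kilobase. It had 47052, 51717 and 48612 normalized counts in livers labelled LD, against 40184, 38319.9 and 41937 in those labelled PBS, and all LD values were above all PBS values. The log2 fold change of 0.29 ± 0.09 (adjusted p = 0.123) did not pass in limma, while DESeq2 on recovered reads called it higher. Over 15 alternative settings the log2 fold change ran from 0.05 to 0.32, and only that DESeq2 fit passed. Col18a1 made up 60.6% to 65.0% of all collagen counts in livers labelled LD and 48.9% to 50.03% in livers labelled PBS.

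Of the fibril-associated collagens, 0 of 4 tested passed in limma, and DESeq2 called Col12a1 and Col16a1. Unadjusted p was under 0.05 for 3 of the 4, where it was for 19.7% of all genes tested. Col14a1 (chromosome 15, 55307750 to 55520803, plus strand), which sits on the surface of fibrils, had 3687, 3306 and 3111 normalized counts in livers labelled LD, against 3759, 3815 and 4089 in those labelled PBS, without overlap and with a log2 fold change of -0.21 ± 0.09 (adjusted p = 0.233). Col12a1 (chromosome 9, 79598991 to 79718831, minus strand) had 205, 195 and 199 normalized counts in livers labelled LD, against 239.7, 297 and 327 in those labelled PBS, a log2 fold change of -0.52 ± 0.15 (adjusted p = 0.0949). Col16a1 (chromosome 4, 130047840 to 130099283, plus strand) had 174, 189 and 187 normalized counts in livers labelled LD, against 244, 288 and 257 in those labelled PBS, a log2 fold change of -0.51 ± 0.14 (adjusted p = 0.0727). In both, the LD libraries were lower than the PBS libraries without passing. The other tested members, each with a mean under 100 in both groups, had log2 fold changes between -1.17, for Col4a6, and 0.75, for Col8a2. Another 7 members were too low to be tested and did not exceed 10.8 in any library.

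Per kilobase of the longest protein-coding transcript, Col18a1 led in both groups, at 8781 ± 424 normalized counts per kilobase in livers labelled LD and 7176 ± 323 in livers labelled PBS (SD, n = 3). Col3a1 followed with 762 ± 57.0 under LD and 1436 ± 130.2 under PBS, and Col1a1 with 731 ± 54.8 under LD and 1388 ± 186 under PBS. Within single libraries, Col3a1 was 1.02, 1.09 and 1.02 times Col1a1 per kilobase under LD, above 1 in each. Under PBS it was 0.994, 1.11 and 1.02 times, on both sides of 1. These ratios were not tested. In livers labelled LD the next places went to Col14a1 at 522 ± 45.4 and Col5a3 at 512 ± 112, which overlap within their SD, and then Col1a2 at 434 ± 34.0. In livers labelled PBS, Col1a2 at 751 ± 91.1 stood before Col14a1 at 602 ± 27.4 and Col4a1 at 516 ± 29.8, and Col5a3 was at 390 ± 32.6.

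Calls of Col1a1, Col1a2, Col3a1, Col6a3 and Col27a1 held without any 1 of the 6 libraries. The other 6 were lost in at least 1 of these fits, at an adjusted p of up to 0.141. With PBS replicate 2 or PBS replicate 3 left out, 5 collagens were called in place of 11, and 6 were called without LD replicate 1. DESeq2 on recovered reads called 16, the 11 and Col12a1, Col16a1, Col18a1, Col4a2 and Col4a5.

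Transcripts that mark collagen-making and neighbouring cells were read beside these values, and their counts stand against 2.21% lower and 1.95% higher among all genes tested. Of 10 stellate cell markers, 2 were lower in livers labelled LD, Pdgfrb at -0.57 ± 0.10 (adjusted p = 0.0205) and Rgs5 at -0.53 ± 0.09 (adjusted p = 0.0147), and the list summed to 22082 to 24724 normalized counts under LD and 24281 to 26850 under PBS. The median log2 fold change of these 10 was -0.34. At an unadjusted p under 0.05 in limma there were 7 of them, where 19.7% of all genes tested were. Of 6 portal fibroblast markers, 2 were lower, Eln at -0.82 ± 0.14 (adjusted p = 0.0158) and Mfap4 at -1.06 ± 0.16 (adjusted p = 0.00947), with sums of 1629 to 1720 under LD and 1725 to 1852 under PBS. Their median log2 fold change was -0.11, and 4 of the 6 had an unadjusted p under 0.05. Bile duct cells are marked by keratins and Epcam. Of 8 cholangiocyte markers 3 were lower, Bicc1, Epcam and Krt19, with a median log2 fold change of -0.84. Their sums were 2387 to 2888 under LD and 3517 to 4089 under PBS, and 7 of the 8 had an unadjusted p under 0.05. Of 6 pericentral and 6 periportal hepatocyte markers, 2 and 1 were higher, and so were 2 of 8 macrophage markers. Median log2 fold changes were 0.53, 0.51 and -0.08 for the pericentral, periportal and macrophage lists. Pericentral markers summed to 414337 to 449898 under LD and 259468 to 354706 under PBS, and periportal ones to 125544 to 128205 and 101097 to 108099. Macrophage sums overlapped, at 9422 to 12974 under LD and 9631 to 14559 under PBS. Unadjusted p was under 0.05 for 5, 4 and 2 markers of these lists. No marker of these lists was at 0 in every library, and their part in the collagen values was not tested.

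The labels of the other bulk table ask what loss of Ms4a7 does on the NASH diet. No collagen gene passed there. Of 36 collagens, 22 were tested and 0 were called in limma, where 3.02% of 15827 genes were higher and 0.701% lower in livers labelled KO, 3.72% in all. At an unadjusted p under 0.05 there were 8 members, each with a positive fold change, and 18.7% of all genes tested. The 3 values labelled KO lay above the 3 labelled wild type for Col1a2, Col3a1, Col5a2, Col6a2, Col6a3 and Col16a1, so for 6 of 22, and below them for 0, against 12.4% and 11.7% of all genes tested. The median log2 fold change was 0.35 over the 22 members and -0.02 over all genes tested. On recovered reads, edgeR called Col3a1 and DESeq2 called Col1a2, Col3a1 and Col6a2, each higher. In the authors' deposited table, 7 of the 30 collagens with an adjusted p were higher in libraries headed treated and 0 lower. The authors' share over all genes is not given here either, and the limma percentages are not a base for these counts.

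Col3a1 came nearest to passing, with 531, 499.8 and 776 normalized counts in livers labelled KO, against 346, 365 and 348 in those labelled wild type. Its groups did not overlap, and the log2 fold change was 0.74 ± 0.17 (adjusted p = 0.0587). Col1a2 had 259, 245 and 335 normalized counts in livers labelled KO, against 139, 191 and 189 in those labelled wild type, also apart, a log2 fold change of 0.69 ± 0.18 (adjusted p = 0.0882). The groups overlapped for Col1a1, with 149.9, 125 and 249.98 normalized counts in livers labelled KO, against 171, 118 and 142 in those labelled wild type and a log2 fold change of 0.24 ± 0.27 (adjusted p = 0.708). The ratio of Col1a1 to Col1a2 counts was 0.512 to 0.746 in livers labelled KO and 0.615 to 1.23 in livers labelled wild type, and these ranges overlapped. Among type V chains, Col5a2 had 59.0, 55.5 and 77.2 normalized counts in livers labelled KO, against 37.6, 34.9 and 29.4 in those labelled wild type, a log2 fold change of 0.89 ± 0.23 (adjusted p = 0.0844) with groups apart. Col5a1 had 106, 134 and 158 normalized counts in livers labelled KO, against 80.0, 106 and 97.9 in those labelled wild type, a log2 fold change of 0.47 ± 0.20 (adjusted p = 0.265), and its highest wild type value just exceeded its lowest KO value. Col5a3 varied more within each label than between labels, with 829, 122 and 192 normalized counts in livers labelled KO, against 1123, 163 and 502 in those labelled wild type and a log2 fold change of -0.74 ± 0.84 (adjusted p = 0.707). Col27a1 had 869, 435 and 645 normalized counts in livers labelled KO, against 809, 1009.8 and 848 in those labelled wild type, with overlap and a log2 fold change of -0.50 ± 0.23 (adjusted p = 0.304).

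Col6a3 and Col6a2 had the largest positive fold changes of the 22 members, without passing. Col6a3 had 60.2, 66.2 and 123 normalized counts in livers labelled KO, against 27.9, 51.6 and 39.2 in those labelled wild type, with groups apart and a log2 fold change of 1.02 ± 0.34 (adjusted p = 0.165). Col6a2 had 104, 93.4 and 170.5 normalized counts in livers labelled KO, against 54.6, 63.3 and 56.3 in those labelled wild type, apart as well, a log2 fold change of 1.02 ± 0.25 (adjusted p = 0.0695). Col6a1 overlapped, with 165, 105 and 248 normalized counts in livers labelled KO, against 98.2, 130.4 and 85.7 in those labelled wild type and a log2 fold change of 0.65 ± 0.31 (adjusted p = 0.324). The library labelled KO replicate 3 held the highest value of each of these 3 chains.

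The basement membrane and multiplexin members lay near 0. Col4a1 had 723, 762 and 727 normalized counts in livers labelled KO, against 553, 729.6 and 917 in those labelled wild type, a log2 fold change of 0.04 ± 0.17 (adjusted p = 0.934). Col4a2 had 638, 778 and 707 normalized counts in livers labelled KO, against 555, 860.0 and 864 in those labelled wild type, a log2 fold change of -0.08 ± 0.18 (adjusted p = 0.864). Both overlapped widely, as did the multiplexins. Col15a1 had 217, 258 and 172 normalized counts in livers labelled KO, against 158, 210.5 and 295 in those labelled wild type, a log2 fold change of -0.01 ± 0.25 (adjusted p = 0.989). Col18a1 had 17643, 17642 and 17779 normalized counts in livers labelled KO, against 19519.9, 17145 and 18564 in those labelled wild type, a log2 fold change of -0.06 ± 0.10 (adjusted p = 0.815), and it made up 75.7% to 78.5% of all collagen counts in livers labelled KO and 77.4% to 80.7% in livers labelled wild type.

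Among fibril-associated chains, Col14a1 had 538, 643 and 804 normalized counts in livers labelled KO, against 255, 564 and 369 in those labelled wild type, overlapping, with a log2 fold change of 0.80 ± 0.28 (adjusted p = 0.185). Col16a1 had 44.2, 40.2 and 46.1 normalized counts in livers labelled KO, against 21.8, 33.6 and 17.1 in those labelled wild type, apart, with 0.87 ± 0.30 (adjusted p = 0.171). Col12a1 had 39.3, 47.3 and 27.6 normalized counts in livers labelled KO, against 36.4, 31.0 and 62.4 in those labelled wild type, overlapping, with -0.15 ± 0.34 (adjusted p = 0.862). The 5 further members tested, Col20a1, Col25a1, Col4a5, Col13a1 and Col11a2, had log2 fold changes between -0.37 and 0.81 and none lay apart. Col8a1, lower in the other table, was among the 14 members too low to test here, with 2.46, 1.18 and 3.46 normalized counts in livers labelled KO, against 6.06, 3.87 and 8.57 in those labelled wild type, and none of those 14 exceeded 17.1. Of 8 macrophage markers 5 were higher in livers labelled KO, where 3.02% of all genes tested were. Their sums were 22854 to 41987 against 3827 to 7887 in livers labelled wild type. Of 10 stellate cell markers 0 passed, with sums of 5192 to 6588 under KO and 2511 to 7306 under wild type. Unadjusted p was under 0.05 for 2 of the 10, a share near the 18.7% of all genes tested. Also higher were 2 of 6 periportal, 1 of 8 endothelial, 1 of 3 neutrophil and 1 of 4 B and plasma cell markers tested. No marker of the other lists passed. The part of these cells in the collagen values was not tested.

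**Figure D3:**
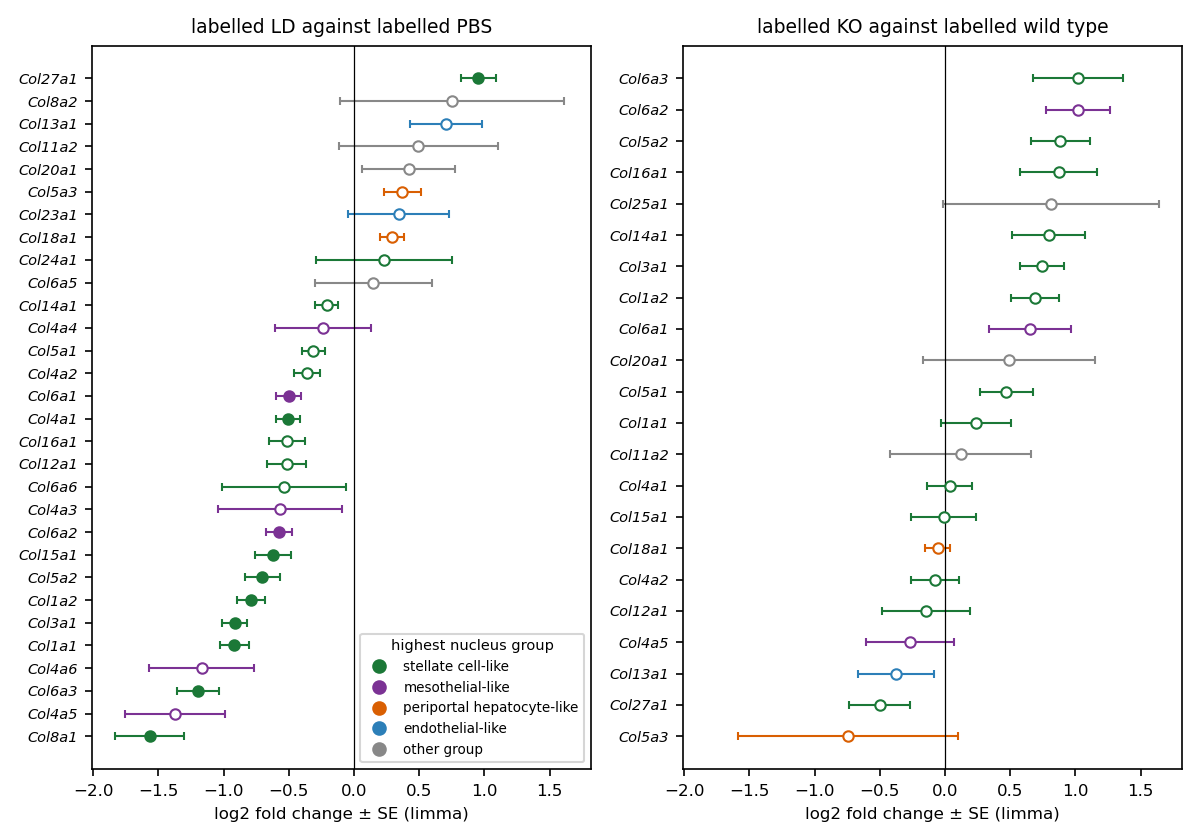
Fold changes of tested collagen genes on the log2 scale (horizontal axis, limma, ± SE) in livers labelled LD against PBS (left, 30 genes) and labelled KO against wild type (right, 22 genes); filled points passed an adjusted p of 0.05, hollow ones did not, and colours give the group of nuclei with the highest level. In the left panel 20 of 30 lie below 0 and 11 are filled, and in the right panel 14 of 22 lie above 0 and 0 are filled.

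The genes that make and bind collagen were read from lists of 28 biosynthesis and 10 receptor genes. In livers labelled LD, 1 of 25 tested biosynthesis genes was lower and 0 were higher, a share near the 2.21% of all genes tested that were lower. It was Serpinh1, the collagen chaperone, with 935, 920.1 and 801 normalized counts in livers labelled LD, against 1204, 1258 and 1357 in those labelled PBS and a log2 fold change of -0.53 ± 0.10 (adjusted p = 0.0228), and its groups lay apart. The hydroxylases, propeptide proteases and other members did not pass. Of the 25, 8 had an unadjusted p under 0.05, where 19.7% of all genes tested did. Of 10 collagen receptors 2 were lower, against the same 2.21% of all genes tested. Ddr1, a receptor tyrosine kinase that binds collagen and is found on epithelial cells, had 123, 158 and 164 normalized counts in livers labelled LD, against 391, 396 and 414 in those labelled PBS, a log2 fold change of -1.44 ± 0.15 (adjusted p = 0.00293). Adgrg1, an adhesion receptor that binds type III collagen, had 92.4, 114 and 70.4 normalized counts in livers labelled LD, against 186, 169 and 211 in those labelled PBS, a log2 fold change of -1.04 ± 0.21 (adjusted p = 0.0285). Both lay apart without overlap, while Ddr2, the related receptor of mesenchymal cells, had 232, 234 and 143 normalized counts in livers labelled LD, against 182, 235 and 278 in those labelled PBS and overlapped. In livers labelled KO, 0 of 25 biosynthesis genes and 0 of 8 receptors tested passed in limma. Unadjusted p was under 0.05 for 4 and 1 of them, where it was for 18.7% of all genes tested.

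The table of nuclei gave the mean level of each gene in 12 numbered groups and both genotypes, as UMIs (single RNA molecules) per 10000 of a nucleus. Groups were named from marker lists. Group 2 was highest for 10 of 10 stellate cell markers, group 11 for 7 of 7 mesothelial markers, group 4 for 7 of 8 endothelial markers, group 7 for 6 of 8 cholangiocyte markers, group 1 for 6 of 6 periportal and group 0 for 6 of 6 pericentral hepatocyte markers, and group 3 for 8 of 8 macrophage markers. Group 8 was left unnamed, since it held markers of several cell types. Its stellate cell markers summed to 87.9 in nuclei labelled KO and 80.7 in nuclei labelled wild type. Its endothelial markers summed to 43.2 in KO and 42.6 in wild type, and its macrophage markers to 18.7 in KO and 13.9 in wild type. Group 11 also held 4 of 6 portal fibroblast markers at 0.5 or more of their highest level. Ms4a7 was 0.622 in nuclei labelled KO and 1.25 in nuclei labelled wild type of the macrophage-like group, and whether the UMIs come from the deleted stretch is not given in the sources used here. How many nuclei stood behind a mean was not given either. With 1 library per genotype there was no test, and no value below has a replicate check.

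Collagen transcripts were concentrated in a few groups. Over all members they summed to 68.5 in nuclei labelled KO and 81.3 in nuclei labelled wild type of the stellate cell-like group, to 43.5 and 45.8 in the mesothelial-like group, and to 37.5 and 40.0 in the unnamed group 8. Cholangiocyte-like nuclei held 12.8 in KO and 12.2 in wild type, and endothelial-like nuclei 11.3 in KO and 14.6 in wild type. Hepatocyte-like nuclei held 8.07 in KO and 6.98 in wild type in group 1 and 6.62 and 6.30 in group 0, and macrophage-like nuclei 1.59 and 1.83. By gene, 19 of the 41 members were highest in the stellate cell-like group and 6 in the mesothelial-like group.

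Of the fibrillar chains, Col3a1 had 9.28 in KO and 11.2 in wild type in the stellate cell-like group, and in the mesothelial-like group 5.89 in KO and 7.29 in wild type. Col5a2 was divided in the same way, with 4.10 in KO and 6.45 in wild type in stellate cell-like and 4.49 in KO and 5.47 in wild type in mesothelial-like nuclei. Col1a2 was narrower, with 2.35 in KO and 3.80 in wild type in stellate cell-like nuclei and 1.16 in KO and 1.29 in wild type in group 8. For these 3 genes, 43.8%, 34.2% and 63.1% of the level summed over the 12 groups lay in the stellate cell-like group. Col1a1 had 0.737 in KO and 1.42 in wild type there and 0.314 in KO and 0.384 in wild type in group 8. Col5a1 had 4.19 in KO and 4.11 in wild type in the stellate cell-like group and 2.39 in KO and 2.42 in wild type in group 8. Col24a1, a fibrillar collagen of bone and cornea, was seen in the same groups, with 1.71 in KO and 1.20 in wild type and, in group 8, 1.25 in KO and 0.661 in wild type.

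Col5a3 and Col27a1 were spread differently from Col1a1, Col1a2 and Col3a1. Col5a3 was highest in hepatocyte-like nuclei, with 1.75 in KO and 1.42 in wild type in the periportal and 1.50 in KO and 1.14 in wild type in the pericentral group. Col27a1 was spread widely, with 1.80 in KO and 3.25 in wild type in stellate cell-like and 1.45 in KO and 1.51 in wild type in cholangiocyte-like nuclei, and its leading group held 26.5% of the summed level. Col5a3 and Col27a1 are also the fibrillar members with means over 100 whose fold change was above 0 in livers labelled LD.

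By UMIs, which are not scaled to length, Col14a1 was the leading collagen of the stellate cell-like group, with 22.0 in KO and 19.7 in wild type, followed by group 8 with 11.8 in KO and 10.5 in wild type. Of other fibril-associated chains, Col16a1 had 0.384 in KO and 0.462 in wild type in the stellate cell-like group and 0.198 in KO and 0.252 in wild type in group 8, and Col12a1 had 0.247 in KO and 0.349 in wild type in the stellate cell-like and 0.307 in KO and 0.111 in wild type in the mesothelial-like group. Type VI chains were divided between these groups. Col6a3 had 2.74 in KO and 6.65 in wild type in stellate cell-like nuclei and 1.40 in KO and 2.16 in wild type in group 8. Col6a1 led in the mesothelial-like group with 0.880 in KO and 0.760 in wild type, then in the stellate cell-like group with 0.623 in KO and 0.525 in wild type. Col6a2 did likewise, with 1.54 in KO and 0.899 in wild type and, in the stellate cell-like group, 0.598 in KO and 0.857 in wild type.

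The 6 type IV chains fell into 2 patterns. Col4a1 had 8.81 in KO and 7.37 in wild type in the stellate cell-like group and 4.79 in KO and 4.60 in wild type in group 8, and Col4a2 had 4.84 in KO and 5.22 in wild type and, in group 8, 2.78 in KO and 3.33 in wild type. Col4a3, Col4a4, Col4a5 and Col4a6, chains of specialised epithelial basement membranes, led in mesothelial-like nuclei with 52.3% to 83.7% of their summed levels there. Col4a5 had 6.67 in KO and 5.58 in wild type in that group and 4.97 in KO and 4.05 in wild type in the cholangiocyte-like group. Col4a4 had 4.81 in KO and 7.05 in wild type and, in cholangiocyte-like nuclei, 0.724 in KO and 0.344 in wild type. Col4a3 had 4.29 in KO and 2.88 in wild type in mesothelial-like and 1.04 in KO and 0.738 in wild type in cholangiocyte-like nuclei, and Col4a6 had 3.69 in KO and 2.71 in wild type and, in cholangiocyte-like nuclei, 1.29 in KO and 1.74 in wild type.

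Network, multiplexin and membrane collagens differed in the group that led. Col8a1 was shared by stellate cell-like nuclei, with 1.57 in KO and 3.13 in wild type, and endothelial-like nuclei, with 0.289 in KO and 2.57 in wild type. Col15a1 had 0.198 in KO and 1.79 in wild type in the stellate cell-like group and 0.0690 in KO and 0.527 in wild type in group 8. Col18a1 was highest in hepatocyte-like nuclei, with 4.42 in KO and 3.66 in wild type in the periportal and 3.37 in KO and 3.42 in wild type in the pericentral group. Col13a1, a membrane-spanning collagen of cell contacts, was highest in the endothelial-like group, with 2.34 in KO and 1.13 in wild type, which is 74.1% of its summed level, and had 0.441 in KO and 0.393 in wild type in group 8. Col23a1, another membrane collagen, had 0.171 in KO and 0.325 in wild type in endothelial-like and 0.112 in KO and 0.220 in wild type in cholangiocyte-like nuclei. The members not named above were at most 0.402 in any group, the level of Col6a5 in group 8 of nuclei labelled KO.

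**Figure D4:**
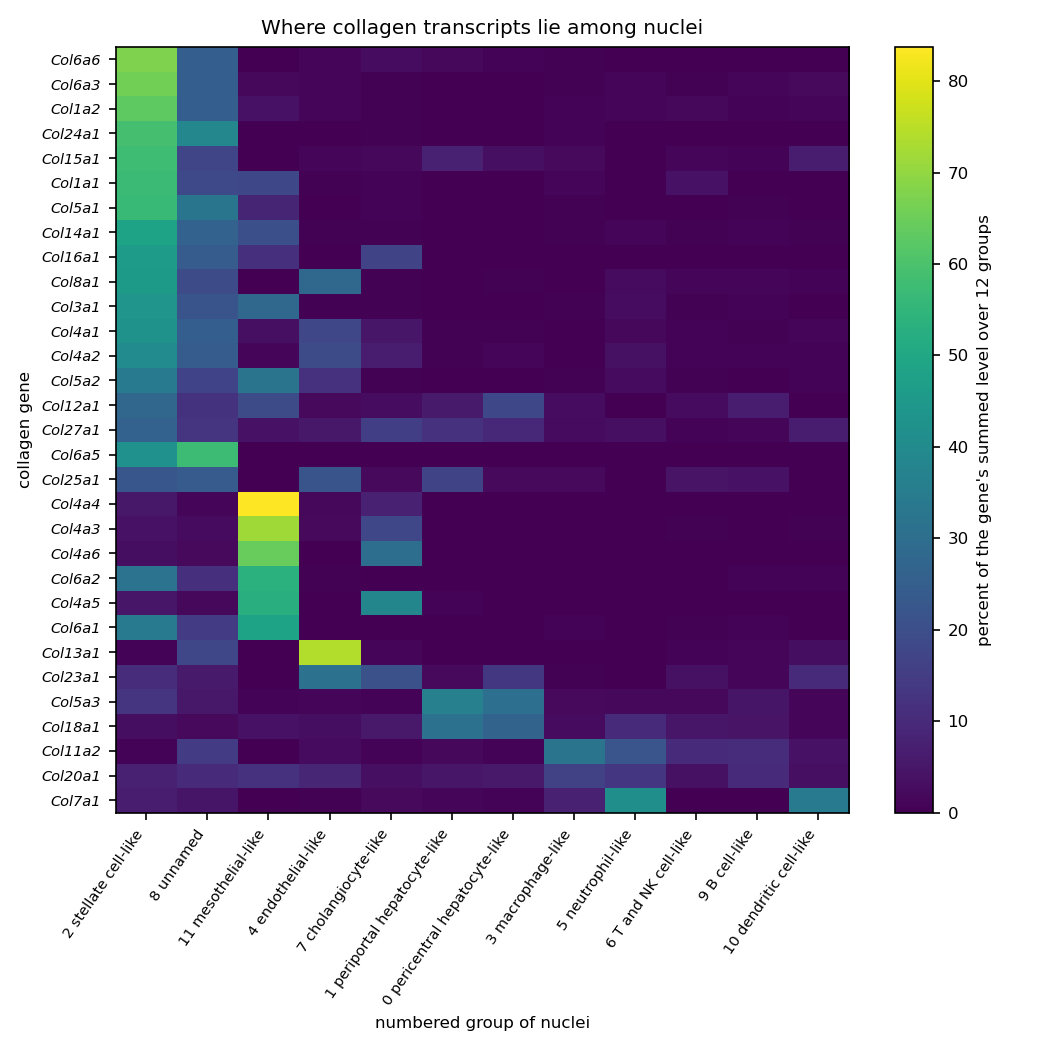
Share of each collagen gene's summed level over 12 numbered groups of nuclei (colour, percent, mean of both genotypes), for genes that reach 0.1 UMIs per 10000 in some group; rows are genes and columns are groups. Col14a1 has 48.7% of its summed level in the stellate cell-like group, Col4a4 has 83.7% in the mesothelial-like group and Col13a1 has 74.1% in the endothelial-like group.

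Over the 12 groups, 184 pairs of a collagen and a group stood above the median level of genes in the group, and 20 were higher and 47 lower in nuclei labelled KO by at least 2-fold, where 11.3% of all such pairs of a gene and a group were higher and 9.55% lower. The neutrophil-like, T and NK cell-like, B cell-like and dendritic cell-like groups gave 9 of the 20 and 22 of the 47, and 5 of the 20 and 12 of the 47 were pairs listed at 0 in 1 genotype, where the ratio rests on the pseudocount. In the neutrophil-like group the median level itself was 0, and 8 of its 14 members counted as lower. Without these 4 groups, 11 of 133 pairs were higher and 25 lower, where 8.39% and 5.48% of all pairs were. Above the 75th percentile of level, 3 of 80 pairs were higher and 8 lower, where 6.11% and 4.75% of all pairs were. With every gene above 0 in either genotype, 55 of 365 were higher and 103 lower, where 16.4% and 14.5% of all pairs were. Collagen transcripts of the stellate cell-like group were lower in nuclei labelled KO for more members than they were higher. Of 28 members above the median level of genes in that group, 7 were lower and 2 higher by at least 2-fold, where 2.82% of all genes above that level were lower and 6.13% higher. The log2 ratio of KO to wild type was below 0 for 19 of the 28 and above 0 for 9, with a median of -0.51 over the members and 0.03 over all genes. Col15a1 differed most, with 0.198 in KO and 1.79 in wild type, a log2 ratio of -3.16. Col6a3 followed among the abundant members, with 2.74 in KO and 6.65 in wild type and a log2 ratio of -1.28. Col4a3, Col4a4, Col4a5, Col4a6 and Col6a6 were the other 5 lower members, at log2 ratios of -2.66 to -1.13 and levels of at most 0.896. The 4 type IV chains among them lead in the mesothelial-like group, and in the stellate cell-like group the 8 cholangiocyte markers summed to 7.23 in KO and 14.5 in wild type, the 7 mesothelial markers to 0.650 in KO and 1.22 in wild type with 3 of them at 0, and the 6 portal fibroblast markers to 1.17 in KO and 1.94 in wild type. The part of these cells in the 5 values was not tested. Higher were Col6a5, with 0.271 in KO and 0.0910 in wild type, and Col20a1, with 0.0975 in KO and 0.0389 in wild type.

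The type I and III chains of this group stayed within 2-fold. The log2 ratio was -0.95 for Col1a1, -0.69 for Col1a2 and -0.27 for Col3a1, and it was -0.99 for Col8a1. Col4a1 and Col14a1 lay above 0, at 0.26 for Col4a1 and 0.16 for Col14a1. Summed stellate cell markers were 172 in nuclei labelled KO and 148 in nuclei labelled wild type of this group.

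In the endothelial-like group Col8a1 was lower, with 0.289 in KO and 2.57 in wild type and a log2 ratio of -3.14, and Col13a1 was higher, with 2.34 in KO and 1.13 in wild type and a log2 ratio of 1.05. In that group 5 of 17 members were lower and 3 higher by at least 2-fold, where 3.96% of all genes were lower and 7.12% higher. The other members past 2-fold there were at 0.190 or less in both genotypes. In this group cholangiocyte markers summed to 0.363 in KO and 1.40 in wild type, mesothelial markers to 0.360 in KO and 1.03 in wild type and portal fibroblast markers to 0.558 in KO and 1.42 in wild type, and their part was not tested. The unnamed group 8 followed the stellate cell-like group for Col15a1, with 0.0690 in KO and 0.527 in wild type, and for Col8a1, with 0.520 in KO and 1.44 in wild type. Of its 28 members 6 were lower and 1 was higher, where 4.36% of all genes were lower and 8.33% higher. Cholangiocyte markers summed to 3.89 in KO and 7.89 in wild type in group 8, and their part was not tested either. In the cholangiocyte-like group 1 of 12 members was higher, Col4a4, and 1 lower, Col14a1, where 7.89% of all genes were higher and 4.30% lower. In the mesothelial-like group 3 of 20 were higher and 2 lower, where 24.9% and 19.9% of all genes were. In the pericentral group 0 of 9 members lay past 2-fold, where 3.74% of all genes were higher and 1.73% lower, and in the periportal group 1 of 10 was higher and 2 were lower, where 4.08% and 3.78% were. In both, Col18a1 stayed within 2-fold, with log2 ratios of 0.27 in the periportal and -0.02 in the pericentral group.

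**Figure D5:**
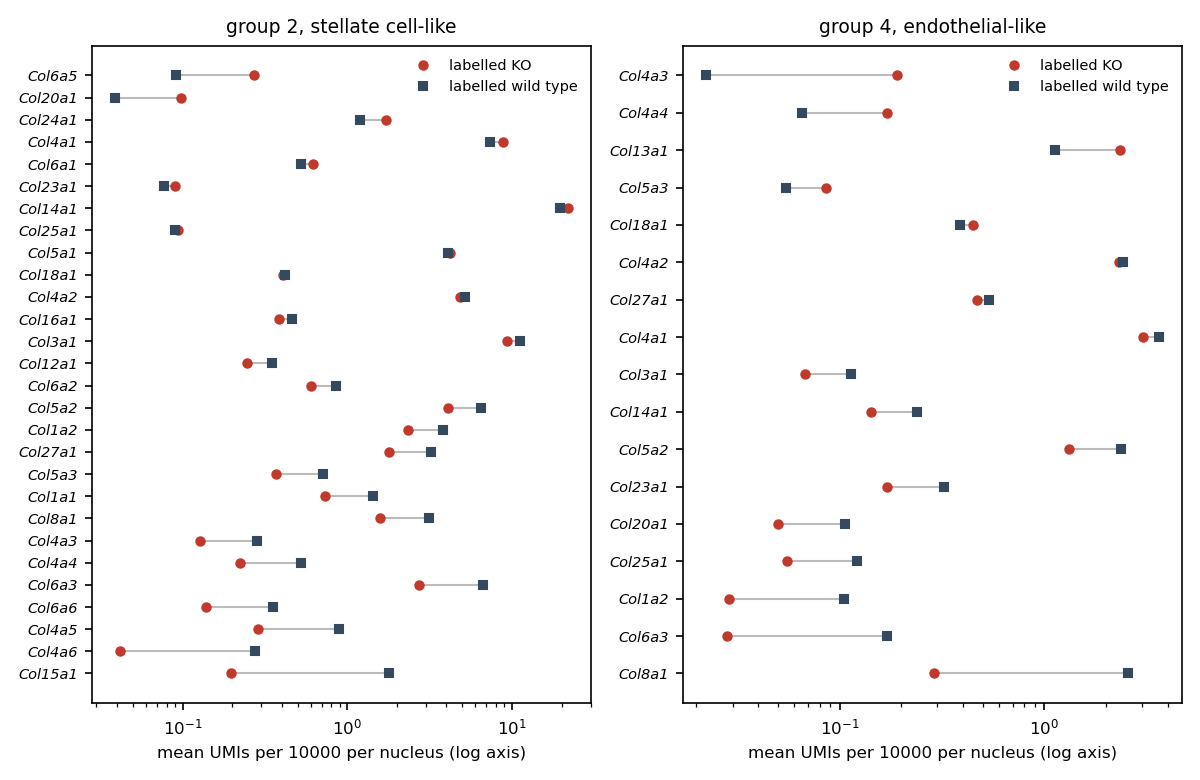
Mean UMIs per 10000 (log axis) of collagen genes above the median level in the stellate cell-like group (left, 28 genes) and the endothelial-like group (right, 17 genes), in nuclei labelled KO (red circles) and labelled wild type (dark squares), 1 library each and hence with no error bars. Genes run down the page by their ratio; the widest gaps to the side of lower KO values are Col15a1 on the left and Col8a1 on the right.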

How the data were processed

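The bulk tables hold a signal that the authors made by dividing counts per gene by a size factor, which was read from the deposited values, since 100% of them are whole multiples of 1 step per library within 0.01. Deposited log2 fold changes and adjusted p-values are the authors' own. FastQC, STAR, DESeq2 and mm10, and for nuclei Cell Ranger with Seurat 4.0.1, stand in the submitters' processing notes. The read counter, gene models and handling of doublets are not given in the sources used here. For nuclei the deposited signal is the authors' mean per group of UMIs scaled to 10000, without barcodes, and 4 entries with repeated names were dropped.

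Each table was fitted alone in limma 3.58.1 (R 4.3.3) with trend on log2(value + 1), 2-sided and without covariates, for genes reaching 10 in 3 or more libraries, with a Benjamini-Hochberg threshold of 0.05. Fold changes of low genes are understated on that scale. edgeR 4.0.16 and DESeq2 1.42.0 were run on recovered reads. Counts of replicates of a group differed by a chi-square of at least 18.3 per degree of freedom. In nuclei, genes above the 50th percentile of a group were compared with a pseudocount of 0.00248, and a ratio past 2-fold counts as called. Alternatives were TMM and quantile scaling, other filters and pseudocounts, a replicate block and leaving out each library. Members, lists and tests were chosen with earlier results of these data known. Members that passed, or reached a mean of 100 in either table, are given in full, and others by range. The fits were tested on simulated data. Positions come from GENCODE on mm10.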

Additional observations from a re-analysis of the deposited data

Results flagged for a closer look

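Col4a4, a type IV chain, lay past 2-fold in opposite directions in 2 groups of nuclei. In the stellate cell-like group it had 0.223 in KO and 0.527 in wild type, a log2 ratio of -1.23. Markers of the groups where Col4a4 is highest were also lower there, with a sum of 7.23 in KO and 14.5 in wild type for cholangiocyte markers and 0.650 in KO and 1.22 in wild type for mesothelial markers, and their part in the value was not tested. In the cholangiocyte-like group it had 0.724 in KO and 0.344 in wild type, a log2 ratio of 1.07. With 1 library per genotype the difference between the groups was not tested. Only members at 0.1 or more in both genotypes were considered, a limit that was set after the values were seen. Outside that limit, Col4a4 was also higher in the endothelial-like group, with 0.170 in KO and 0.0654 in wild type. There the cholangiocyte markers summed to 0.363 in KO and 1.40 in wild type. Mesothelial markers summed to 0.360 in KO and 1.03 in wild type, and the part of these cells was not tested.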

How the results depend on the processing

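For livers labelled LD against PBS, 11 collagens were called, and the same 11 in edgeR, under TMM and quantile scaling, without a filter, at a mean of at least 50 and with pseudocounts of 0.5 and 5. DESeq2 called them and 5 more. Leaving out 1 library at a time gave 5 to 11 collagens and 135 to 1205 of all genes, where 620 genes were called with all 6. For livers labelled KO against wild type, 0 collagens were called in limma under every setting run, edgeR called 1 and DESeq2 3, and leaving out 1 library gave 0 collagens and 108 to 479 of all genes, where 589 were called with all 6. DESeq2 called 1241 genes in that table and 1221 in the other. In nuclei, 67 of 184 pairs of a collagen and a group lay past 2-fold, 20 higher and 47 lower, where 11.3% and 9.55% of all pairs did. It was 11 of 80 pairs above the 75th percentile of level, 158 of 365 when every gene above 0 was kept, and 36 of 133 without groups 5, 6, 9 and 10, a choice made after seeing the data. These settings enter other numbers of pairs, and the cause was otherwise not tested. Replicate numbers did not pair the samples: deviations of same-numbered libraries correlated at 0.12, -0.03 and -0.02 for KO and wild type and at 0.05, -0.04 and 0.13 for LD and PBS. With the replicate block, 0 and 11 collagens were called as without it, and 822 and 793 of all genes. Values of single members kept their sign under each alternative wherever they were called. Of 849 alternatives, many of them for values with no call to lose, 22 lost a call. All 22 were fits without 1 library, for 6 of the 11 members called in livers labelled LD. Each of these 6 still passed in only 1 to 4 of its 6 such fits. Another 30 alternatives, for values without a p-value, moved across a set limit. Depth of the nuclei is unknown, so that a low level there has no interval.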

Other observations

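Members that were lower in livers labelled LD can be set beside the other measurements. Of these 10 members, 8 had a log2 ratio of KO to wild type below 0 in stellate cell-like nuclei and 2, Col4a1 and Col6a1, above 0. Of the 10, 2 lay past 2-fold there, Col6a3 at -1.28 and Col15a1 at -3.16. Among all 28 collagens above the median level of that group, 19 were below 0 and 7 were lower by at least 2-fold. In the bulk table labelled KO and wild type, 9 of the 10 were tested, and 8 had a positive fold change and 1, Col15a1, a negative one of -0.01, without any passing. Among all 22 collagens tested there, 14 had a positive fold change. The caution on the bulk labels holds here too. The ratio of Col1a1 to Col1a2 counts was 1.85 to 2.14 in the table labelled LD and PBS and 0.512 to 1.23 in the other. It is taken within each library, so that scaling cancels, and the difference between the tables was not tested.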
